A study of Mus musculus with 40 samples.

Results

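The 9 genes described here, Meis1, Meis2, Meis3, Pbx2, Pbx3, Pbx4, Pknox1, Pknox2 and Tgif1, encode transcription factors of the TALE homeobox class. They were taken by symbol from the gene column of 8 deposited expression tables, where they are 9 of the 23228 gene symbols present in all 8. The rule that takes them uses symbols and no measured value.

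TALE proteins carry a homeodomain with an extra loop and often act as cofactors of other homeodomain proteins. PBX proteins bind DNA together with HOX proteins and with MEIS or PKNOX (Prep) proteins. MEIS and PKNOX partners help to keep PBX in the nucleus, and MEIS genes are known targets of retinoic acid in embryonic tissue and differentiating cells. TGIF1 differs from the others: it is mainly a co-repressor, which limits transcription driven by SMAD proteins and by retinoid receptors.

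RNA was measured in cultured mouse embryonic stem (ES) cells, on a mixed C57BL/6 strain background. The cells were wild type or homozygous for a mutant of GLP named GLP 3A. GLP, the product of Ehmt1, is a histone H3 lysine 9 methyltransferase, and the series asks what its ability to propagate this histone mark does. The residues changed in 3A are not given in the labels. Each genotype was sampled untreated and after exposure to all-trans retinoic acid (RA) at 1 uM, with 2 libraries in each of the 4 groups. All cells had been moved from feeder cells with serum and LIF, a cytokine that sustains ES cells, to feeder-free 2i medium. LIF was withdrawn when RA was added, so the effects of RA and of LIF loss cannot be told apart, and "RA" stands for both below. The labels do not say how long treatment lasted, how many mutant clones there were or whether replicates were separate cultures. The p-values therefore measure only the spread between these libraries, which may be technical.

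Values are RPKM, reads scaled to transcript length and to the reads mapped in the library, so levels can be compared between genes. A library had 11344 to 12369 genes at 1 RPKM or more. The RPKM of all genes summed to 748556 to 822877 in the untreated libraries and to 509341 to 554854 with RA. The size of a difference with RA, and the direction of a small one, therefore depends on the scale used. The tables hold no read counts. From the spacing of low values, the replicate 1 libraries were estimated at relative depths of 0.96 to 1.25 and the replicate 2 libraries at 0.44 to 0.58, which is a rough estimate, so a value near 0 rests on fewer reads in replicate 2. Ehmt1 itself had RPKM values of 18.4 and 17.6 (wild type) and 14.1 and 14.3 (GLP 3A) before treatment, and of 24.4 and 23.5 and of 13.0 and 13.9 after it. A transcript level does not check a change of residues. Pou5f1, the pluripotency factor OCT4, was at 1004 to 1250 RPKM in the untreated libraries and 2.20 to 27.7 with RA. Cyp26a1, an RA-degrading enzyme induced by RA, was at 0.612 RPKM or less untreated and 125 to 218 with RA. In bulk RNA, more cells expressing a gene and more RNA per cell cannot be told apart.

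The promoters of the genes that moved most in each direction show the sequence context of these measurements. RefSeq windows of the build GRCm38.p6 were at hand for 6 of the 9 genes, with 10 start sites. For each the 250 bases before the start site are considered, and 3 are printed 5′ to 3′ on the gene's own strand. They lie at chr11:19018970-19019219 for Meis1, chr2:116064620-116064869 for Meis2 and chr17:70849791-70850040 for the second of the 5 listed Tgif1 start sites, all on the minus strand. Capitals mark motif matches.
Meis1: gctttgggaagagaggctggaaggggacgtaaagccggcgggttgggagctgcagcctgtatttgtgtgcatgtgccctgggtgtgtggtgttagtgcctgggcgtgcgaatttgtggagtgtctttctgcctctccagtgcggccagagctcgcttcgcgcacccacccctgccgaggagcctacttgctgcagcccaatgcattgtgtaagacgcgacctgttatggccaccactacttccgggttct
Meis2: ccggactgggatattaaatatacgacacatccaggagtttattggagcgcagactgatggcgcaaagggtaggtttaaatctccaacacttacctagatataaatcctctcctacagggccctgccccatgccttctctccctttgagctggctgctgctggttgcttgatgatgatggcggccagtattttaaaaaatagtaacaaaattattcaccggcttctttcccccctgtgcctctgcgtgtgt
Tgif1, start site 2: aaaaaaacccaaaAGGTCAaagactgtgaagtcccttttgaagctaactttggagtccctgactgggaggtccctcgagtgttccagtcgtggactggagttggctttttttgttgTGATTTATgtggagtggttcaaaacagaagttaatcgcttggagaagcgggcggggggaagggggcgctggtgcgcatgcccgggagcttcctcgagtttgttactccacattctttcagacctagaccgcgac
Both strands were searched for TGACAG, a MEIS and TGIF core, and TGATNNAT, a PBX-HOX composite site. They were also searched for AGGTCA, a half-site of nuclear receptors, the retinoic acid receptor among them. The window of the second Tgif1 start site holds AGGTCA at 237 to 232 bases before the start and TGATTTAT, a match to TGATNNAT, at 134 to 127 bases before it. These were the sole matches in the 10 windows, against 15.9% of all 32841 RefSeq windows of this length with TGACAG, 7.69% with TGATNNAT and 14% with AGGTCA. Direct repeats of AGGTCA with a spacer of 5 or of 2 bases, which overlap the half-site search, were each in 0.00913% of windows and in none of the 10. A match is a run of letters and was not tested for binding.

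Of the 9 genes, 6 rose with RA in both genotypes. Meis1 and Meis2, which encode PBX partners, went from under 1 RPKM to levels among the highest of the 9, and Tgif1, the most abundant in untreated cells, fell. In wild type, 6 of the 9 rose, 1 fell and 2 did not pass the test (limma, Benjamini-Hochberg adjusted p under 0.05). Among all 13198 genes tested, 33.7% rose and 34.8% fell, 68.5% in all. In GLP 3A, 6 rose, 2 fell and 1 did not pass, against a background of 32.3% higher, 38.1% lower and 70.4% in all. In each genotype the treated libraries lay wholly above the untreated ones for 6 genes and wholly below them for 2, Pknox1 and Tgif1. Over all genes 41.7% lay wholly above and 44% wholly below in wild type, and 39.2% and 45.6% in GLP 3A. The median log2 difference of the 9 was 1.58 in wild type and 1.30 in GLP 3A, beside -0.03 and -0.07 over all genes. All 9 passed the filter on low values, Meis1, Meis2 and Pknox2 only through the RA libraries, where they are high, so their differences had to be large and these counts and medians describe the genes without supporting a shared change.

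**Figure D1:**
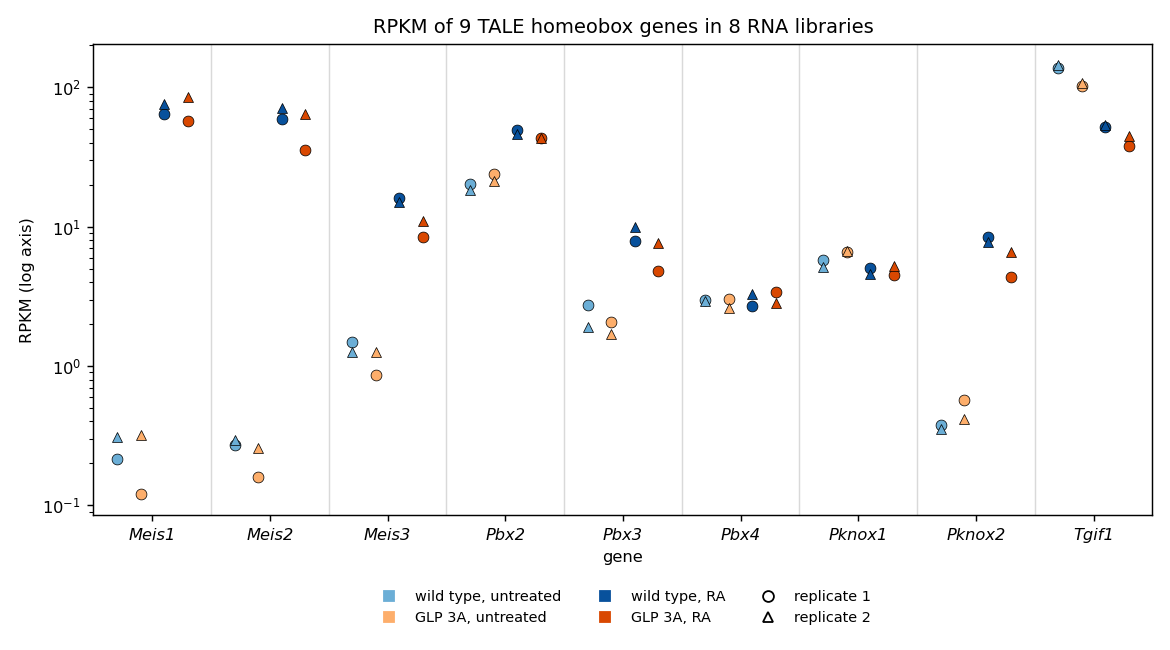
Level of each of the 9 genes in RPKM (log axis) in the 8 libraries, with colour for the group and circles and triangles for replicates 1 and 2. Meis1 and Meis2 lie under 1 RPKM in the 4 untreated libraries and at 35.4 to 84.9 RPKM in the 4 RA libraries, while Tgif1 is highest in the untreated ones.

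Meis1 lies at chr11:18780430-18918972 (mm9, as in the tables) and encodes a PBX partner needed in blood and limb development. It measured 0.216 and 0.310 RPKM in the wild-type libraries without RA against 0.121 and 0.320 in GLP 3A, and 64.6 and 75.5 against 57.3 and 84.9 with RA. The treated and untreated libraries lie far apart, and the 2 genotypes overlap in both conditions. The rise was 5.81 ± 0.20 on the log2(RPKM + 1) scale (moderated standard error, n = 2 libraries a group) in wild type, with a limma adjusted p of 5.9e-06. In GLP 3A it was 5.86 ± 0.20, with a limma adjusted p of 6.9e-06. On the RPKM scale the ratio of means was 266 in wild type, and 208 to 350 between single libraries. In GLP 3A it was 323, and 179 to 703 between single libraries. The untreated levels rest on few reads, so these ratios are imprecise, and the log2 differences with their added 1 understate them.

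Meis2, at chr2:115686999-115890794 in mm9, encodes a close paralogue active in neural crest, brain and limb. Without RA it had RPKM values of 0.270 and 0.296 in wild type and 0.161 and 0.259 in GLP 3A. After treatment the wild-type values were 59.5 and 71.4 and the GLP 3A values 35.4 and 63.9. The lowest treated library, replicate 1 of GLP 3A, still stands far above every untreated one. The log2 difference was 5.69 ± 0.26 in wild type (limma adjusted p = 1.3e-05) and 5.33 ± 0.26 in GLP 3A (limma adjusted p = 1.7e-05). The RPKM ratios were 231 (201 to 264 between single libraries) and 237 (137 to 397).

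Meis3, at chr7:16760728-16771852 in mm9, is known from hindbrain patterning. It had a measurable untreated level, 1.49 and 1.27 RPKM in wild type, 0.855 and 1.27 in GLP 3A. After treatment it reached 16.0 and 14.9 RPKM in wild type but 8.45 and 11.0 in GLP 3A, and the libraries of the 2 treated genotypes do not overlap. It rose by 2.79 ± 0.15 in wild type (log2 difference, limma adjusted p = 2.4e-05) and by 2.37 ± 0.15 in GLP 3A (limma adjusted p = 4.3e-05). These are RPKM ratios of 11.2 and 9.14.

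Among the PBX genes, Pbx2 and Pbx3 rose and Pbx4 did not pass the test. Pbx2, at chr17:34729415-34734286 in mm9, encodes a broadly expressed PBX protein, and it was the most abundant of the 3 in every library. It measured 20.3 and 18.4 RPKM in the wild-type libraries without RA against 23.8 and 21.1 in GLP 3A, and 49.8 and 46.3 against 43.6 and 43.4 with RA. No treated library overlaps an untreated one. The log2 difference was 1.27 ± 0.09 in wild type (limma adjusted p = 4.9e-05) and 0.93 ± 0.09 in GLP 3A (limma adjusted p = 1.6e-04), RPKM ratios of 2.48 and 1.94.

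Pbx3, at chr2:34027428-34227556 in mm9, encodes a PBX protein known from hindbrain neurons and leukaemias. Without RA it had RPKM values of 2.75 and 1.91 in wild type and 2.06 and 1.69 in GLP 3A. After treatment the wild-type values were 7.91 and 9.98 and the GLP 3A values 4.78 and 7.64. Within a group it varied more than Pbx2, but treated and untreated libraries do not overlap. It rose by 1.58 ± 0.23 in wild type (log2 difference, limma adjusted p = 0.00113) and by 1.30 ± 0.23 in GLP 3A (limma adjusted p = 0.00255). The RPKM ratio in wild type was 3.84, and 2.88 to 5.21 between single libraries.

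Pbx4, at chr8:72356602-72396191 in mm9 and known from the testis, stayed within 2.61 to 3.39 RPKM over all 8 libraries. The untreated and treated libraries overlap in both genotypes. The log2 difference with RA was 0.00 ± 0.12 in wild type (95% interval -0.28 to 0.29, limma adjusted p = 0.981) and 0.11 ± 0.12 in GLP 3A (-0.18 to 0.40, limma adjusted p = 0.455). A change within these intervals was not detectable with 2 libraries a group.

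**Figure D2:**
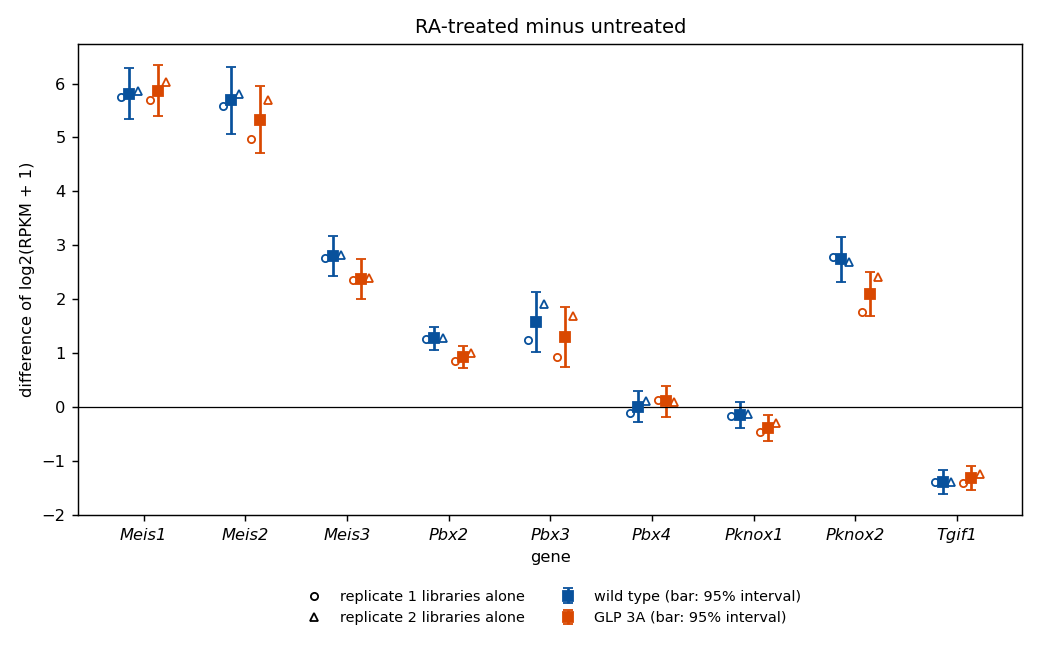
Difference of log2(RPKM + 1) between RA-treated and untreated cells for each gene in wild type and GLP 3A. Squares are estimates with 95% intervals and open symbols the replicate 1 or replicate 2 libraries alone. Meis1 and Meis2 lie above 5, Pbx4 at 0.00 and 0.11, and Tgif1 at -1.39 and -1.32.

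The PKNOX pair behaved unlike each other. Pknox1 (Prep1), at chr17:31701717-31744638 in mm9, encodes a widely expressed PBX partner that is needed in early embryos. It measured 5.81 and 5.13 RPKM in the wild-type libraries without RA against 6.62 and 6.65 in GLP 3A, and 5.09 and 4.58 against 4.50 and 5.18 with RA. All treated libraries lie below all untreated GLP 3A libraries, and 1 treated GLP 3A library lies above 1 untreated wild-type library. The wild-type difference of -0.15 ± 0.10 did not pass the test (log2, 95% interval -0.39 to 0.10, limma adjusted p = 0.235). In GLP 3A Pknox1 fell by 0.39 on the log2 scale, ± 0.10 (limma adjusted p = 0.0130), to 0.730 of its untreated RPKM. That call was lost without either untreated GLP 3A library (adjusted p = 0.0608 and 0.0610) and without replicate 1 of RA-treated GLP 3A. The summed RPKM of the libraries was lower with RA, so the direction of a change as small as that of Pknox1 depends on this scale. The 2 responses did not differ by the test of their difference (-0.24 ± 0.14, limma adjusted p = 0.391).

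Pknox2 (Prep2), at chr9:36698566-36954899 in mm9, encodes the paralogue with the narrower tissue range. Without RA it had RPKM values of 0.378 and 0.354 in wild type and 0.572 and 0.419 in GLP 3A. After treatment the wild-type values were 8.46 and 7.76 and the GLP 3A values 4.35 and 6.57. It was thus below Pknox1 in every untreated library, and above it in 3 of the 4 treated ones. The log2 difference was 2.74 ± 0.17 in wild type (limma adjusted p = 3.8e-05) and 2.09 ± 0.17 in GLP 3A (limma adjusted p = 9.9e-05), RPKM ratios of 22.2 and 11.0.

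Tgif1, the co-repressor, lies at chr17:71193544-71202872 in mm9. It measured 138 and 144 RPKM in the wild-type libraries without RA against 102 and 107 in GLP 3A, and 51.9 and 54.0 against 37.9 and 44.9 with RA. The 4 groups do not overlap, and in each condition both GLP 3A libraries lie below both wild-type libraries. With RA it fell by 1.39 ± 0.09 in wild type (log2 difference, limma adjusted p = 4.5e-05) and by 1.32 ± 0.09 in GLP 3A (limma adjusted p = 5.5e-05), to 0.376 and 0.395 of the untreated RPKM.

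Summed by branch, the 9 genes changed their make-up more than their total. In untreated cells Tgif1 held 73.3% to 82.4% of the summed RPKM and the MEIS genes 0.816% to 1.31%. With RA, Tgif1 held 16.6% to 19.5% and the MEIS genes 50.7% to 59.1%. The 3 PBX genes held 13.4% to 20.7% untreated and 19.9% to 25.9% with RA. The summed level of all 9 was 139 to 174 RPKM untreated and 199.6 to 288 RPKM with RA. In untreated wild type the order of mean RPKM was Tgif1, Pbx2, Pknox1, Pbx4, Pbx3, Meis3, Pknox2, Meis2 and Meis1. The ranges of Pbx3 and Pbx4 (1.91 to 2.75 and 2.94 to 2.97 RPKM) lie close together, and those of Meis1 and Meis2 overlap. With RA in wild type the order was Meis1, Meis2, Tgif1, Pbx2, Meis3, Pbx3, Pknox2, Pknox1 and Pbx4, where the ranges of Meis1 and Meis2, and of Pbx3 and Pknox2, overlap.

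**Figure D3:**
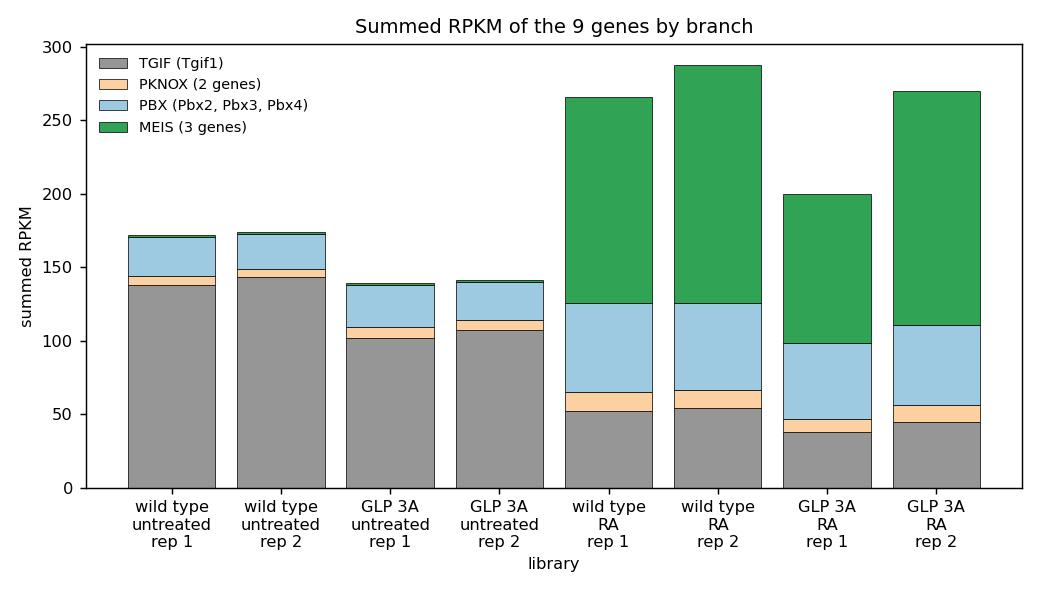
Summed RPKM of the 9 genes in each library, stacked by branch. Tgif1 makes up most of the bar in the 4 untreated libraries and the MEIS genes over 50% of it in the 4 RA libraries.

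Markers of other cell types moved with RA as well. The sum of 10 ES cell markers was 4663 to 5660 RPKM untreated and 146 to 395 with RA. The sum of 12 fibroblast markers, which feeder cells would carry, was 6.68 to 7.58 RPKM untreated and 92.8 to 145 with RA, with 4 of the 12 at 0 in at least 1 library. In each genotype 8 of the 9 tested rose and 1, Thy1, fell. For 12 primitive endoderm markers, 2 of them at 0 in at least 1 library, the sums were 125 to 295 and 660 to 1168 RPKM. Of the 11 tested, 9 rose in wild type and 7 in GLP 3A, and 2 and 4 did not pass. In the fibroblast list and in the endoderm list, 6 tested genes each passed the filter on low values only through RA libraries. For 9 neural markers, with 1 at 0 in at least 1 library, they were 30.6 to 52.6 and 65.5 to 89.2 RPKM. Of the 8 neural markers tested in wild type, 5 rose and 3 fell, among them the neuronal tubulin gene Tubb3, from 24.6 and 23.6 RPKM to 11.2 and 11.6. Sums over 9 mesoderm markers were 12.5 to 15.3 RPKM untreated and 7.93 to 12.7 with RA. In each genotype 3 of the 5 tested rose and 2, T and Eomes, fell. Their log2 medians were 1.34 in wild type and 1.19 in GLP 3A. Eomes went from 8.21 and 7.38 RPKM to 0.347 and 0.234 in wild type, and T from 3.58 and 3.46 to 1.12 and 1.67. Among all genes 33.7% rose and 34.8% fell in wild type, and 32.3% and 38.1% in GLP 3A. Sums over 9 trophoblast markers were 36.4 to 63.4 RPKM untreated and 31.8 to 102 with RA. The part of such cells in the levels of the TALE genes was not tested.

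The genotypes were compared within each condition. In untreated cells Tgif1 alone passed the test, being lower in GLP 3A, and 8 of the 9 genes did not, against 7.52% of all genes higher and 4.15% lower. Tgif1 fell by 0.42 on the log2 scale, ± 0.09 (limma adjusted p = 0.0355), to 0.743 of the wild-type RPKM. The difference was -0.43 in replicate 1 and -0.42 in replicate 2. The call was lost when any untreated library, or either wild-type RA library, was left out, with adjusted p from 0.0537 to 0.202, and when no filter was used (0.0738). In all of these fits the difference stayed between -0.46 and -0.39. Marker sums differed between the untreated genotypes too: primitive endoderm markers summed to 125 and 125 RPKM in wild type against 294 and 295 in GLP 3A. Sparc, which encodes a secreted matrix protein, made up most of that gap (91.6 and 79.6 RPKM against 262 and 242), and it was the only 1 of 11 tested markers of that list to pass, with a list median of 0.03. The sums of ES cell markers were 5551 and 5660 RPKM against 4746 and 4663. Dppa5a made up most of that gap (2265 and 2344 RPKM against 1737 and 1805) and was not called. Of the 10 markers tested 1, Zfp42, passed, being lower in GLP 3A. Members of the list went both ways: Nanog, not called, was at 149 and 143 RPKM against 187 and 191, and Tdgf1 was also higher. The part of these marker differences in the Tgif1 difference was not tested.

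The other 8 genes in untreated cells had log2 differences from -0.21 ± 0.15 for Meis3 to 0.24 ± 0.10 for Pknox1, with limma adjusted p of 0.436 and 0.180. Both GLP 3A libraries were above both wild-type libraries for 3 genes, Pbx2, Pknox1 and Pknox2, and below them for Meis2 and Tgif1. Such a separation in untreated cells was common: 40.3% of all genes were separated upward and 27.7% downward. The median of the 9 was -0.05, beside 0.04 over all genes.

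With RA, 0 of the 9 passed the limma test between genotypes. Among all genes 5.3% were called higher and 5.31% lower, 10.6% in all. Both GLP 3A libraries lay below both wild-type libraries for 5 genes (Meis3, Pbx2, Pbx3, Pknox2 and Tgif1) and above them for 0, where 27.2% and 24.1% of all genes were separated so. The median of the 9 was -0.35, beside -0.01 over all genes.

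Meis3 with RA was 0.63 lower in GLP 3A on the log2 scale (difference -0.63 ± 0.15, limma adjusted p = 0.0521). It was past the threshold after median-of-ratios scaling (-0.65, adjusted p = 0.0440) and quantile normalization (-0.67, adjusted p = 0.0444). Tgif1 differed by -0.35 ± 0.09 (limma adjusted p = 0.0597), with -0.45 in replicate 1 and -0.26 in replicate 2, and median-of-ratios scaling gave -0.38 (adjusted p = 0.0435). Pknox2 differed by -0.52 ± 0.17 (limma adjusted p = 0.107), with -0.82 in replicate 1 and -0.21 in replicate 2. Meis2 differed by -0.45 ± 0.26 (limma adjusted p = 0.302) and Pbx3 by -0.49 ± 0.23 (limma adjusted p = 0.218). Meis1, with a difference of -0.00 ± 0.20, had a 95% interval of -0.47 to 0.47. Meis1 is on chromosome 11, where tested genes had a median genotype difference of 0.24 both untreated and with RA, and 19.7% and 18.0% of them were called higher in GLP 3A. On the 5 other chromosomes that hold one of the 9 genes the medians were -0.04 to 0.06. The part of this shift in the Meis1 values was not tested.

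These treated values turn on the 2 GLP 3A libraries, which stand apart from each other. Replicate 1 had the lowest Meis1, Meis2, Meis3, Pbx3, Pknox1, Pknox2 and Tgif1 of the 4 RA libraries, and replicate 2 had the highest Meis1. Pknox1 and Tgif1 did not rise with RA. Replicate 1 also had the highest ES marker sum of the 4, 395 RPKM against 146 to 265, and the lowest fibroblast marker sum, 92.8 RPKM against 126 to 145. Dppa5a alone was 285 RPKM of that ES sum. Sox2 was lowest in this library (21.4 RPKM against 35.4 to 47.2) and Klf4 was below wild-type replicate 1, while the other ES markers were highest in it. Among fibroblast markers Col1a1, Thy1, Postn and Pdgfrb were highest in it, and Col1a2, Col3a1, Twist1, Twist2 and Dcn lowest. The treated wild-type libraries stood apart from each other as well. Their primitive endoderm markers summed to 1168 and 660 RPKM, against 718 and 699 in treated GLP 3A. Over both replicates, the sum of 9 trophoblast markers was 41.5 and 31.8 RPKM in treated wild type against 102 and 70.6 in treated GLP 3A, with 3 of the 9 at 0 in at least 1 library. Krt7 made up most of that gap (28.9 and 26.7 RPKM against 81.6 and 56.9). In that list 2 of the 5 tested genes passed, Krt7 and Tfap2c, both higher in GLP 3A, beside 5.3% of all genes called higher. The list median was 0.99. The part of these differences in the result was not tested. Without replicate 2 of treated GLP 3A, the log2 differences were -0.86 for Meis2, -0.80 for Meis3, -0.77 for Pknox2 and -0.47 for Tgif1. Without its replicate 1 these differences were smaller.

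**Figure D4:**
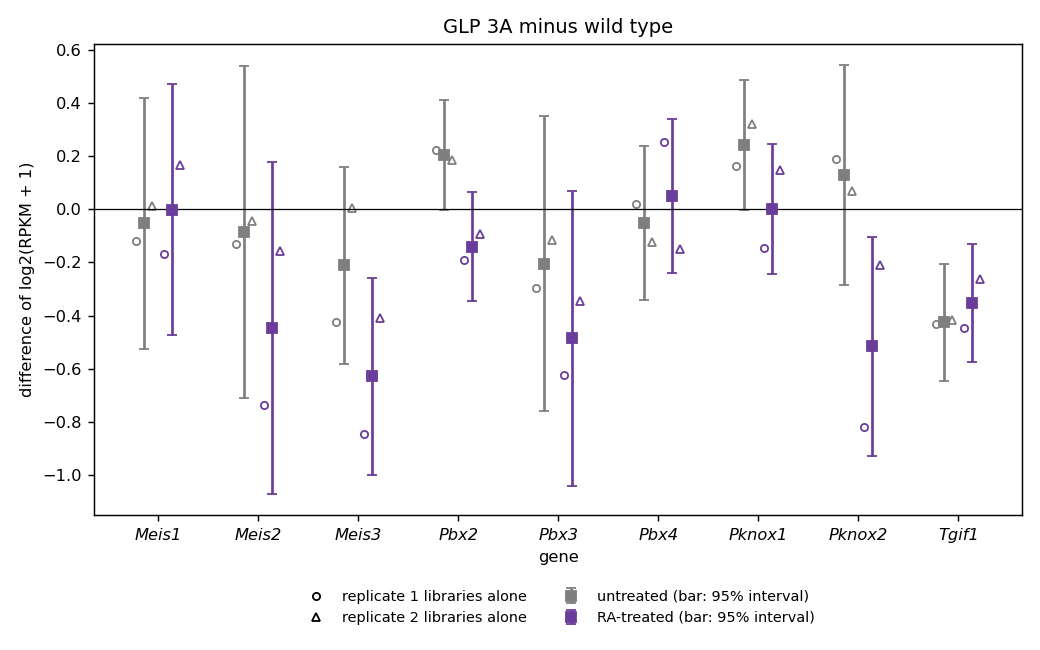
Difference of log2(RPKM + 1), GLP 3A minus wild type, for each gene in untreated and RA-treated cells. Squares are estimates with 95% intervals and open symbols the replicate 1 or replicate 2 libraries alone. In treated cells replicate 1 lies below replicate 2 for every gene but Pbx4, and Tgif1 is below 0 in both replicates of both conditions.

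The difference between the responses of the 2 genotypes was tested directly. None of the 9 passed (limma), and 1.8% of all genes were called, 0.561% higher and 1.24% lower. Pbx2 had -0.34 ± 0.12 (log2, limma adjusted p = 0.180) and Pknox2 -0.64 ± 0.24 (limma adjusted p = 0.203), both a smaller rise in GLP 3A. Without replicate 2 of RA-treated GLP 3A, the difference for Pknox2 was -0.89. For Tgif1 the responses differed by 0.07 ± 0.13 (limma adjusted p = 0.795), and for Meis1 by 0.05 ± 0.28 (limma adjusted p = 0.939). The 2 genotype comparisons and this test share libraries, so their values for a gene are not independent.

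Of 10 further TALE homeobox genes looked up, 9 were measured and 7 were tested. In wild type all 7 rose with RA and in GLP 3A 6 did, with medians of 1.35 and 1.35 on the log2 scale, beside 33.7% and 32.3% of all genes. Of the 7, 4 (Irx1, Irx3, Irx4 and Irx5) passed the filter on low values only through RA libraries, so their rise was built into the selection. Between genotypes 1 of the 7 passed in untreated cells, Tgif2, and 1 with RA, Irx5, beside 11.7% and 10.6% of all genes.

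Tgif2, the paralogue of Tgif1, differed from it in direction. It measured 12.4 and 11.9 RPKM in the wild-type libraries without RA against 18.4 and 17.5 in GLP 3A, and 22.8 and 19.5 against 19.2 and 17.8 with RA. It rose with RA in wild type by 0.75 ± 0.09 (limma adjusted p = 5.6e-04), and in GLP 3A the difference was 0.04 ± 0.09 (limma adjusted p = 0.695). In untreated cells it was higher in GLP 3A by 0.52 ± 0.09 (limma adjusted p = 0.0190), a call lost without any one of the 4 untreated libraries, with adjusted p up to 0.141. The difference of the responses, -0.70 ± 0.13, missed the threshold (limma adjusted p = 0.0576). Another symbol in the tables overlaps the Tgif2 locus, so its reads are uncertain.

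Among the Iroquois genes, Irx3 rose by 4.28 ± 0.25 in wild type (limma adjusted p = 2.9e-05) and Irx5 by 2.40 ± 0.18 (8.2e-05). Irx5 with RA was lower in GLP 3A, by a log2 difference of -0.81 ± 0.18 (limma adjusted p = 0.0447), and this call was kept in 1 of 8 fits that left out a library.

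**Figure D5:**
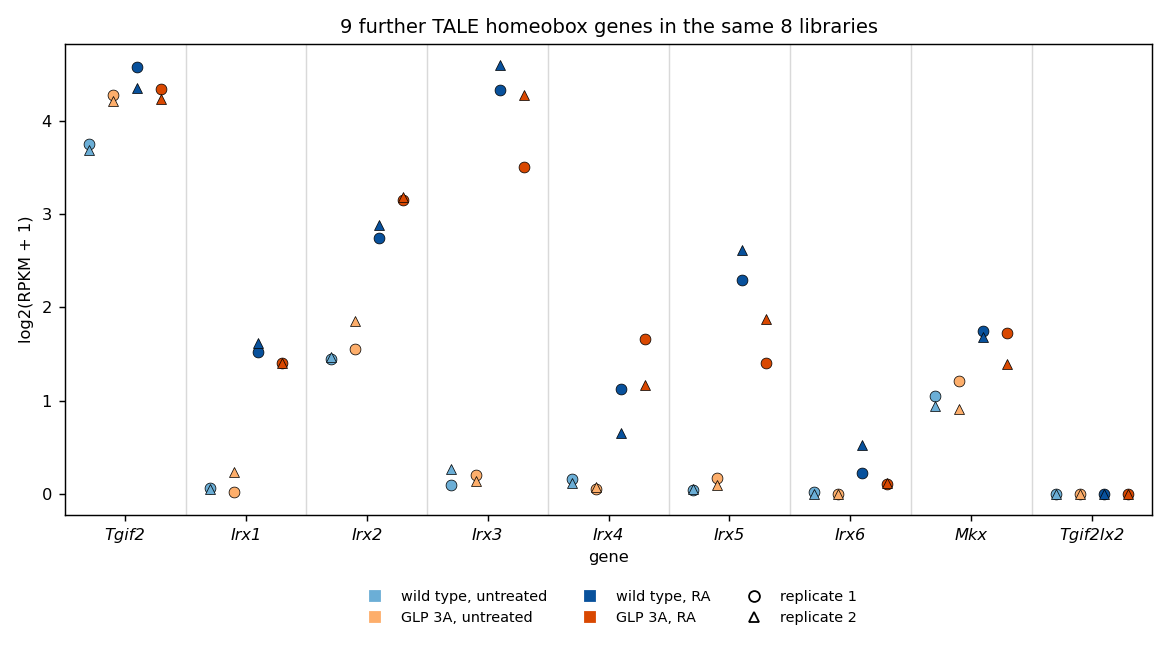
Levels of 9 further TALE homeobox genes as log2(RPKM + 1) in the 8 libraries, with colour for the group and circles and triangles for replicates 1 and 2. Tgif2 in untreated cells is higher in GLP 3A than in wild type, and Irx3 and Irx5 are near 0 without RA.

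The HOX genes, whose proteins bind DNA with PBX and MEIS, were mostly under 1 RPKM without RA. Of 39 measured HOX genes, 32 were tested, and 30 of these passed the filter on low values only through RA libraries, so that a rise was built into their selection. Of the 32, 31 rose in wild type and 30 in GLP 3A, beside 33.7% and 32.3% of all genes, with medians of 3.91 and 3.07 on the log2 scale. Between genotypes 0 of the 32 passed in untreated cells, where 11.7% of all genes did. With RA, 8 were lower in GLP 3A, 1 was higher and 23 did not pass, beside 5.31% of all genes lower and 5.3% higher. The median with RA was -0.49, beside -0.01 over all genes. Of the 9 calls, 4 were kept with each library left out. Hoxb1, the single higher one, was named after its values were seen, and differed by 0.86 ± 0.09 (limma adjusted p = 0.00644). Hoxc9, with the largest fall of those called, differed by -1.60 ± 0.23 (limma adjusted p = 0.0170), and was called in 3 of 8 fits that left out a library.

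Of 11 co-repressors and SMAD partners of TGIF1, all tested, 7 rose with RA in wild type, 3 fell and 1 did not pass. Among all genes 33.7% rose and 34.8% fell there. In GLP 3A 6 rose, 4 fell and 1 did not pass, beside 32.3% and 38.1% of all genes. The medians were 0.44 and 0.42, beside -0.03 and -0.07 over all genes. Ctbp2, a co-repressor that TGIF1 binds, went from 84.2 and 79.1 RPKM to 21.6 and 22.5 in wild type, a log2 difference of -1.84 ± 0.07 (limma adjusted p = 7.2e-06). Smad3, a transducer of TGF-beta signals, went the other way, from 4.93 and 4.24 to 19.3 and 16.9 RPKM, a log2 difference of 1.77 ± 0.10 (limma adjusted p = 2.8e-05). None of the 11 passed between genotypes in either condition, where 11.7% (untreated) and 10.6% (RA) of all genes were called.

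Of 8 other PBX or MEIS partners 5 were tested. In wild type 2 rose with RA, 2 fell and 1 did not pass, and in GLP 3A 1 rose, 2 fell and 2 did not pass. Over all genes 33.7% rose and 34.8% fell in wild type, 68.5% in all. In GLP 3A the shares were 32.3%, 38.1% and 70.4%. Pbxip1, which encodes a PBX-binding protein that hinders PBX-HOX activity, went from 3.31 and 3.23 RPKM to 10.4 and 12.1 in wild type, a log2 difference of 1.51 ± 0.11 (limma adjusted p = 7.1e-05). Klf4, a pluripotency factor that can act together with MEIS2, fell by 4.81 ± 0.37 on that scale. None of the 5 passed between genotypes, where 11.7% (untreated) and 10.6% (RA) of all genes were called.

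The genes whose 8-library profiles were most like those of the 9 are given as a description, since any gene with a large response to RA shares most of such a profile. Likeness was the root mean square difference of log2(RPKM + 1) profiles, each centred on its mean, over the 8 libraries, which are the same for all genes. Meis1 was nearest to Cyp26b1 (0.095), an RA-degrading enzyme, then Hoxb2 (0.159) and Stra6 (0.194), the receptor for retinol-binding protein. Meis2 was nearest to Col1a2 (0.220), a collagen chain, then Cyp26b1 (0.262) and Pkdcc (0.266). Olfml2b was among the 3 nearest to both Meis3 (0.144) and Pknox2 (0.102). Pbx2 was nearest to Dvl3 (0.049) and Pacs1 (0.049), Pbx3 to Khdrbs3 (0.113), Pknox1 to Stt3b (0.031) and Tgif1 to Wdr12 (0.063). Between the 9 themselves the distance of Meis1 and Meis2 was 0.241 and that of Meis3 and Pknox2 0.194.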

How the data were processed

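The tables hold RPKM per gene symbol, as deposited. Per the submitters' processing notes the authors used Bowtie 0.12.7, TopHat, SAMtools and Cufflinks with the build mm9, and no version is given for the last 3. RNA came from Trizol extraction with a DNase step and was read single-end, per the labels' protocols. Of the 40 samples, 32 are chromatin or input libraries and are not used here. The 8 libraries were grouped by genotype and treatment as labelled.

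The tests used limma 3.58.1 (R 4.3.3) and the log2(RPKM + 1) scale, with 4 group means over all 8 libraries and an empirical Bayes prior with intensity trend. They were two-sided, in 5 comparisons. Benjamini-Hochberg adjustment covered 13198 genes, those at 1 RPKM or more in 2 or more libraries. The fit was tested on simulated data. Intervals are 95%. A ratio is a ratio of mean RPKM. No locus of the 9 genes overlaps another symbol's. Relative depth came from whole-number ratios, within 1.5%, of values at or under 0.15 RPKM. Of these ratios 15.1% to 25.8% matched.

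The 9 genes and all lists were chosen with earlier results of these data known, and 1 gene of a list is not reported here. Up to 4 called and 2 uncalled genes of a list could be named, and 3 most alike genes per member, Gm and Rik names left out. Alternatives were pseudocounts of 0.1 and 0.5, no filter or 5 RPKM, median-of-ratios or quantile scaling, no trend, only the groups compared, a replicate block, and each library left out.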

Additional observations from a re-analysis of the deposited data

How the results depend on the processing

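Of 751 values of a gene in a comparison under 17 alternatives, 707 kept their direction and their side of the threshold, 10 lost a call, 10 gained one and 24 changed sign. The counts of genes called with RA stayed at 7 or 8 in both genotypes. For untreated GLP 3A against wild type the count of 1 became 0 with no filter and ranged from 0 to 1 with a library left out. For the treated genotypes the count of 0 became 2 after median-of-ratios scaling, 1 after quantile normalization, and ranged from 0 to 4 with a library left out, 4 without replicate 2 of RA-treated GLP 3A. For the difference of responses it ranged from 0 to 1. Pknox1 in wild type was called lower with RA under quantile normalization (-0.38, limma adjusted p = 0.0147). When a library was left out, the lone one of its group was assumed to vary like the other groups.

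The changes of sign were of values not past the threshold, and the cause was not tested. With quantile normalization Pbx4 became -0.31 with RA in wild type and -0.23 in GLP 3A, and between treated genotypes Meis1 became 0.068 and Pknox1 -0.0048. Median-of-ratios scaling gave -0.023 for Pknox1 there. The others changed sign when a library was left out. Pbx4 with RA in wild type ranged from -0.10 to 0.11. Between untreated genotypes Meis1 ranged from -0.17 to 0.065 and Pbx4 from -0.13 to 0.025. Between treated genotypes Meis1 ranged from -0.28 to 0.28, Pbx4 from -0.055 to 0.16 and Pknox1 from -0.084 to 0.085. The difference of responses ranged from -0.23 to 0.33 for Meis1, -0.78 to 0.058 for Meis2, -0.57 to 0.0094 for Pbx3, -0.0028 to 0.21 for Pbx4 and -0.047 to 0.19 for Tgif1. For Meis1, Meis2, Pbx3 and Tgif1 in the treated or response comparisons, both ends came from leaving out 1 of the 2 RA-treated GLP 3A libraries.

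Over all genes, 1541 calls between untreated genotypes became 206 to 260 without an untreated library and 3450 with only the libraries compared. Their share of higher calls, 64.4%, was 54.1% after median-of-ratios scaling and 53.2% after quantile normalization. The 1401 calls between treated genotypes became 15 with only the libraries compared, 797 with no filter, 735 without replicate 1 of treated GLP 3A, 2431 without its replicate 2 and 298 to 340 without any one of the other 6 libraries. The 238 calls for the difference of responses became 1128 without replicate 2 of treated GLP 3A and 11 to 69 without any one of the libraries of the other 3 groups. The depth behind levels under 1 RPKM, such as untreated Meis1, Meis2 and Pknox2, is known only roughly.

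Both replicate numbers occur in every group, but the labels tie them to no shared culture or batch. The difference between replicates 1 and 2 correlated between groups at r = 0.17 to 0.36 across 13198 genes, which are not independent. With a replicate block, 1 gene was called between treated genotypes, Tgif1 (-0.35, limma adjusted p = 0.0386), and no other count of the 9 genes moved.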
